A study of Mus musculus with 12 samples.

Results

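The 9 genes described here encode adipokines and related adipocyte secreted proteins, chosen by name: adiponectin (Adipoq), leptin (Lep), resistin (Retn), adipsin (Cfd), retinol binding protein 4 (Rbp4), nicotinamide phosphoribosyltransferase or visfatin (Nampt), chemerin (Rarres2), fatty acid binding protein 4 (Fabp4) and apelin (Apln). They are 9 of the 18539 genes listed in the 3 gene tables of the series. All 9 had a row in the tables of adipocytes and hepatocytes, and 7 had one in the table of C2C12 cells, where Retn and Cfd were not analysed.

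Poly(A) RNA was sequenced in 12 libraries, 1 for each of 3 cell types and 4 treatments. The treatments were olanzapine (1 μM) with calcifediol (10 μM), olanzapine with calcitriol (0.1 μM), olanzapine alone, and vehicle. Olanzapine, an antipsychotic drug, was present for the last 12 h. In the co-treatments the vitamin D metabolite was also given for the 24 h before it, while the olanzapine cultures had vehicle over those 24 h and the vehicle cultures had it for 36 h. The adipocytes were primary cells of C57BL6/J mice, grown from subcutaneous preadipocytes of neonatal pups and differentiated in culture with insulin in the medium. The C2C12 cells, an established mouse muscle line that stands for 1 cell source, had been differentiated into myotubes. The hepatocytes were primary cells from livers of male C57BL6/J mice 6 to 8 weeks old, kept with insulin and dexamethasone.

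Total counts per library were 15641434 to 19348338. The labelled cell types held their defining markers. Summed over 12 intracellular adipocyte genes, adipocyte libraries had 29090 to 32517 CPM (counts scaled to 1000000 per library), C2C12 libraries 155 to 244 CPM and hepatocyte libraries 698 to 749 CPM. Adipocyte libraries also held 18619 to 20771 CPM of 8 preadipocyte and fibroblast markers. The 9 myotube markers summed to 19020 to 21374 CPM in C2C12 libraries, and the 9 hepatocyte markers to 75992 to 80117 CPM in hepatocyte libraries. Of the hepatocyte libraries, the calcitriol one stood apart by 501 counts of the preadipocyte and fibroblast markers, against 32 to 52 in the other 3. Low counts of adipocyte genes in that library were therefore treated as possible carry-over, and its values are given with and without it.

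Adipokines are hormones and other proteins through which fat tissue acts on liver, muscle, vessels and brain. Adiponectin raises insulin sensitivity in liver and muscle, leptin signals energy stores to the hypothalamus, and resistin opposes insulin action in mice. Several members are not confined to fat: the liver is the main source of retinol binding protein 4 and a source of chemerin, and nicotinamide phosphoribosyltransferase is an enzyme of NAD synthesis in nearly every cell. Fabp4 is a carrier of fatty acids in adipocytes and macrophages that is also released from fat, and it is a target of the adipocyte receptor PPARγ.

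The stretches before the transcription starts of Lep, Adipoq and Rbp4 are shown because Lep and Adipoq were read almost entirely in adipocytes, while Rbp4 was read in adipocytes and hepatocytes. They are the 250 bases upstream of the start in RefSeq on GRCm38.p6, written 5′ to 3′ on the strand of the gene: Lep at chr6:29059971-29060220 (plus strand), Adipoq at chr16:23146286-23146535 (plus strand) and the downstream one of 2 starts of Rbp4 at chr19:38124812-38125061 (minus strand). Capitals mark matches, on either strand, to the motifs that were searched. The letters TATAAA stand for the TATA box. The letters TTGCNNAA stand for sites of the C/EBP factors. The letters AGGTCA stand for the core that nuclear receptors bind. The letters CACGTG stand for the E box.
Lep: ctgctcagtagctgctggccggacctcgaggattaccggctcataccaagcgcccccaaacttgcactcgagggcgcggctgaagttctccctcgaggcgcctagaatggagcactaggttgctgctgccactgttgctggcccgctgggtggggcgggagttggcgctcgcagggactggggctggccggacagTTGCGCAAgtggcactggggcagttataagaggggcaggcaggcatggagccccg
Adipoq: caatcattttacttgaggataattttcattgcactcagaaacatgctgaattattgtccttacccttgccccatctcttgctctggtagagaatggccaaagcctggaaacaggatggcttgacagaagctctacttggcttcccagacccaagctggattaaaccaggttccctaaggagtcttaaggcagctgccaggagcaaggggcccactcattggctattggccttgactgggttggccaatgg
Rbp4: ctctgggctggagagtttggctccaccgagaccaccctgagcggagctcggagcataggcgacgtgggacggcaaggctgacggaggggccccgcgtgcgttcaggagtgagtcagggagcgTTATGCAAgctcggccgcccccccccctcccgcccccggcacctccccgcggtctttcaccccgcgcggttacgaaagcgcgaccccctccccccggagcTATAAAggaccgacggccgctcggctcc

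The Lep stretch held 1 C/EBP match, which reads the same on both strands, 55 to 48 bases before the start. The Rbp4 stretch held a C/EBP match 128 to 121 bases and a TATA box 28 to 23 bases before its start. The Adipoq stretch held none of these letters. RefSeq promoters were matched for 7 of the 9 members, with 8 starts, and beside the matches above only Nampt held one, an AGGTCA 151 to 146 bases before its start. Of all 32851 RefSeq promoters of this length, 9.56% held the C/EBP letters, 12.4% TATAAA, 14% AGGTCA and 6.02% CACGTG. A pair of AGGTCA copies in direct repeat with 1 base between them (a PPARγ type site) was in 0.0335% of promoters, one with 3 bases between (a vitamin D receptor type site) in 0.00609%, and neither in any of the 8. A match is a description of these letters and no measurement of binding.

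Levels between genes were compared in FPKM, which is scaled to gene length. In adipocytes Fabp4 had the highest mean FPKM of all 17742 genes, with 11608 FPKM in the calcifediol co-treatment, 10834 in the calcitriol co-treatment, 12206 with olanzapine and 13001 with vehicle. Among the members Retn followed at 3021 to 3841 FPKM over the 4 libraries, then Rbp4 at 2020 to 2399, Adipoq at 1657 to 2162 and Cfd at 1054 to 1231. The ranges of Rbp4 and Adipoq overlapped, and those of the other neighbours among these 5 did not. Rarres2 lay at 229 to 283 FPKM and Nampt at 96.5 to 121. Lep, at 21.3 to 27.5 FPKM, and Apln, at 19.9 to 25.7, were lowest and overlapped. The 9 genes together made up 1.33% to 1.53% of the counts of an adipocyte library, 0.00251% to 0.0101% of a C2C12 library and 0.125% to 0.134% of a hepatocyte library.

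**Figure D1:**
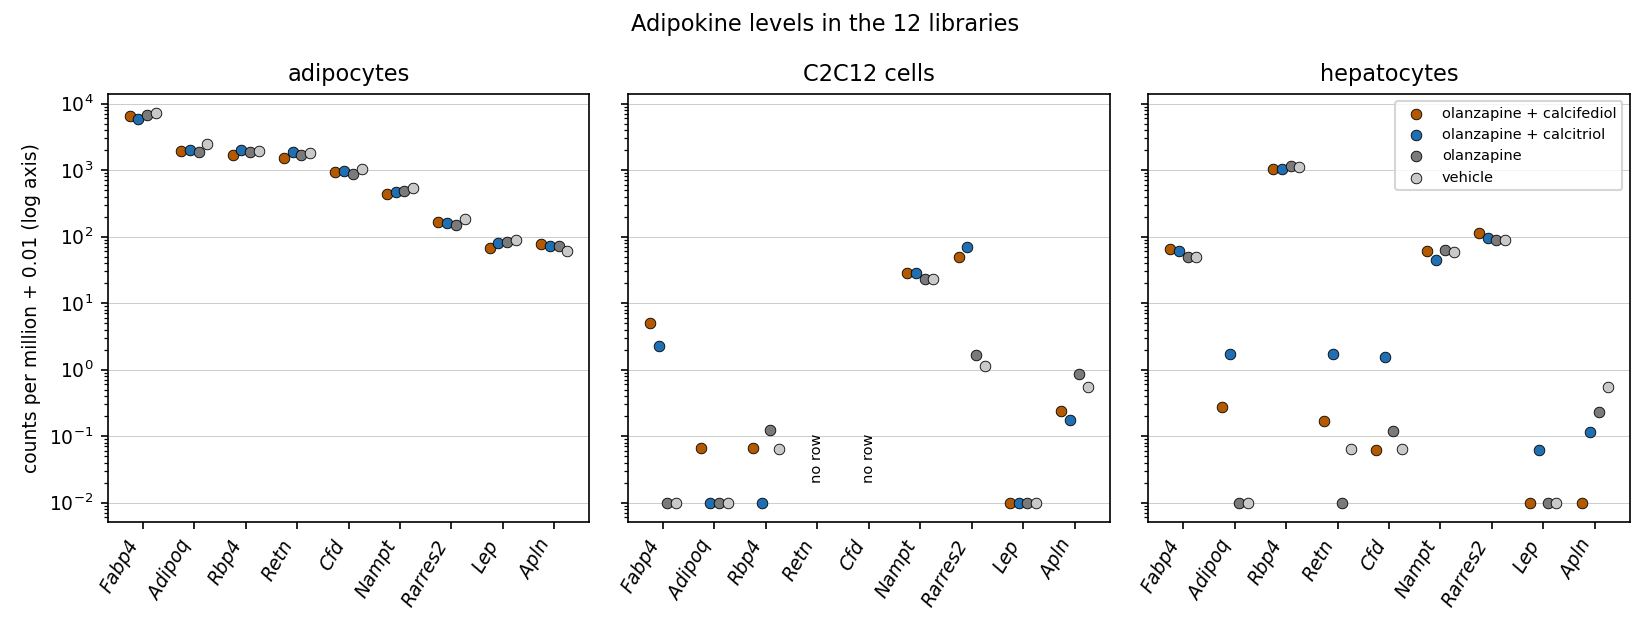
Level of each adipokine in the 12 libraries, as CPM plus 0.01 on a log axis, 1 point per library and 1 panel per cell type, so that a count of 0 lies at 0.01. All 9 genes were above 60 CPM in every adipocyte library, and Rarres2 and Fabp4 lay higher in both co-treated C2C12 libraries than in the other 2.

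The design has 1 library per condition, so the cell types were compared by a model with terms for the cell and for the treatment, fitted to all 12 libraries (edgeR quasi-likelihood test, adjusted over 13519 genes). A member was called at a fold change of at least 2 and an adjusted p of at most 0.05. In adipocytes against C2C12 cells all 7 members tested were higher in adipocytes, where 17.7% of genes tested were called higher. In adipocytes against hepatocytes 5 of 7 were called higher, against a background of 27.5%. In a further fit on the 8 libraries of these 2 cell types, chosen after the data were seen so that Retn and Cfd could enter, 7 of 9 were called higher, against 27.8%. In C2C12 cells against hepatocytes 5 of 7 were called, all lower in C2C12 cells, against a background of 15.8%. The members were chosen as adipocyte genes, and Lep and Apln passed the filter of 1 CPM only through adipocyte libraries. Outside adipocytes, Adipoq, Retn and Cfd reached it only in the hepatocyte calcitriol library. The counts of members higher in adipocytes were thus largely fixed in advance and are a description. None of these counts can tell fewer cells of a type from less RNA per cell, since the libraries are bulk.

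Lep (chr6:29060221-29073876, GRCm38.p6) was read at 67.6, 80.5, 83.7 and 87.5 CPM in adipocytes with calcifediol, calcitriol, olanzapine and vehicle. It had 0 counts in all 4 C2C12 libraries and 1 count in the hepatocyte calcitriol library, with 0 in the other 3 hepatocyte libraries. A count of 0 allows up to 3 counts, or 0.172 CPM, so that Lep was at least 393.2-fold higher in each adipocyte library than in any C2C12 library. In the edgeR test the adjusted p was 7.27e-09 for adipocytes against C2C12 cells (higher in 4 of 4 libraries) and 6.6e-09 against hepatocytes. Lep passed the filter of 1 CPM only through the adipocyte libraries, so these calls were fixed by it. It is therefore described by its counts.

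Adipoq (chr16:23146536-23157968, GRCm38.p6) had 33736, 31365, 31934 and 38758 counts in adipocytes with calcifediol, calcitriol, olanzapine and vehicle. It had 1 count in the C2C12 calcifediol library and 0 in the other 3 C2C12 libraries, and 5, 33, 0 and 0 counts in hepatocytes. The adipocyte libraries did not overlap with the others (adjusted p = 1.54e-08 against C2C12 cells and 1.92e-08 against hepatocytes). Outside adipocytes Adipoq reached the filter of 1 CPM only in the hepatocyte calcitriol library, so these p-values are not counted as support. Adipoq was also called in C2C12 cells against hepatocytes (adjusted p = 0.0377), and this call rested on the hepatocyte calcitriol library: without it the adjusted p was 0.197, DESeq2 gave 0.0572, and the 4 alternatives ranged between 0.0218 and 0.197.

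Retn (chr8:3655770-3659818, GRCm38.p6), a cysteine-rich hormone, and Cfd (chr10:79890853-79892655), a serine protease of the alternative complement pathway, showed the same division between fat and liver cells. Retn had 25719, 29615, 28165 and 27800 counts in adipocytes and 3, 33, 0 and 1 in hepatocytes. Cfd had 16314, 15612, 14838 and 16148 counts in adipocytes and 1, 30, 2 and 1 in hepatocytes. Over the 8 libraries the log2 difference was 11.77 ± 0.30 (SE) for Retn (adjusted p = 1.55e-16) and 11.05 ± 0.27 for Cfd (adjusted p = 1.17e-16). Without the hepatocyte calcitriol library it was 14.36 and 13.57. Outside adipocytes both genes reached the filter of 1 CPM only in that library, so these p-values are not counted as support.

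Apln (chrX:48025146-48034853, GRCm38.p6), the ligand of the receptor Aplnr, had 1354, 1155, 1234 and 952 counts in adipocytes, 4, 3, 15 and 10 in C2C12 cells and 0, 2, 4 and 10 in hepatocytes. The log2 difference of adipocytes was 7.31 ± 0.37 over C2C12 cells (adjusted p = 1.82e-08) and 8.35 ± 0.40 over hepatocytes (adjusted p = 1.24e-08), higher in 4 of 4 libraries in both. Apln passed the filter of 1 CPM only through adipocyte libraries, so these calls were fixed by it and are a description.

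Nampt (chr12:32820335-32853369, GRCm38.p6) was read in every library. It had 431, 462, 487 and 541 CPM in adipocytes with calcifediol, calcitriol, olanzapine and vehicle, 28.3, 28.0, 22.8 and 23.3 CPM in C2C12 cells, and 61.3, 44.7, 62.1 and 57.9 CPM in hepatocytes. The 3 cell types did not overlap. Adipocytes were higher by 4.23 ± 0.14 on the log2 scale than C2C12 cells (adjusted p = 8.28e-10) and by 3.09 ± 0.13 than hepatocytes (adjusted p = 4.91e-09), and C2C12 cells were lower than hepatocytes, with a log2 difference of -1.14 ± 0.13 (adjusted p = 1.08e-05).

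Rbp4 (chr19:38116620-38125321, GRCm38.p6), the carrier of retinol in blood, had 29326, 31797, 31132 and 30257 counts in adipocytes, 1, 0, 2 and 1 in C2C12 cells and 19788, 20129, 20823 and 20939 in hepatocytes. It was thus a product of both primary cell types, ranking 18 by mean FPKM in adipocytes and 53 in hepatocytes. The adipocyte libraries were 0.79 ± 0.11 higher than the hepatocyte libraries on the log2 scale (adjusted p = 6.13e-05), under the fold threshold, and 14.86 ± 0.23 higher than C2C12 libraries (adjusted p = 1.28e-11). Ttr, the plasma partner of Rbp4, had 33952 to 40512 counts in hepatocytes and 0 to 2 in adipocytes.

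Fabp4 (chr3:10204342-10208616, GRCm38.p6) in hepatocytes was far below its adipocyte level but well above 0, with 64.0, 60.1, 49.3 and 49.2 CPM in the libraries with calcifediol, calcitriol, olanzapine and vehicle. The adipocyte libraries had 6413, 5878, 6676 and 7211 CPM (log2 difference over hepatocytes 6.93 ± 0.68, adjusted p = 3.86e-06). Macrophages also express Fabp4, and 8 macrophage markers summed to 6240, 8218, 7580 and 8572 counts in the same 4 hepatocyte libraries, mostly Cd68. Of the others, Adgre1 had 3 to 9 counts, Lyz2 10 to 17 and Ptprc 0 to 3. These 3 genes were picked after their values were seen, and the rest of the list is not given. The part of macrophages in the Fabp4 counts was not tested. In C2C12 cells Fabp4 had 4.93, 2.22, 0 and 0 CPM, below all 4 hepatocyte libraries (log2 difference -5.14 ± 0.70, adjusted p = 4.85e-05).

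Rarres2 (chr6:48569696-48572845, GRCm38.p6) encodes the precursor of chemerin, an attractant for immune cells that also acts in adipocyte differentiation. It had 163, 157, 147 and 184 CPM in adipocytes and 112, 96.7, 87.6 and 87.3 CPM in hepatocytes, with no overlap between these cell types. The log2 difference was 0.82 ± 0.77 in the fit over 12 libraries (adjusted p = 0.344) and 0.77 ± 0.08 in the fit over 8 libraries (adjusted p = 4.27e-08), under the fold threshold in both. C2C12 cells had 49.8, 70.5, 1.62 and 1.14 CPM, so that the highest of these libraries was 61.8 times the lowest. Over all 4 libraries adipocytes were higher than C2C12 cells by 3.03 ± 0.89 on the log2 scale (adjusted p = 0.00935, higher in 4 of 4 libraries).

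Treatments were compared between pairs of libraries of 1 cell type. Log2 ratios were taken after scaling to total counts, with exact 95% intervals that cover counting error only. A gene was called at a fold change of at least 2 and a false discovery rate of at most 0.05 in the comparison of the 2 libraries, which describes these libraries and not the conditions. In C2C12 cells Rarres2 was called higher with calcifediol, where 5.28% of genes tested were, and with calcitriol, where 4.43% were. Fabp4 was past the same thresholds, but it passed the filter on low values only through the co-treated libraries, so its call was fixed by that filter and it is described by its counts. With olanzapine against vehicle 0 of the C2C12 members were called, against 0.313% of genes.

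Rarres2 had 868 counts in the calcifediol library and 1269 in the calcitriol library of C2C12 cells, against 29 in the olanzapine library and 21 in the vehicle library. Both co-treated libraries lay above both others. Against olanzapine the log2 ratio was 4.91 (4.41 to 5.53) with calcifediol and 5.42 (4.91 to 6.03) with calcitriol, and it lay between 4.72 and 5.41 and between 5.22 and 5.92 over 8 alternatives each. Olanzapine and vehicle did not differ beyond counting error (0.50, -0.35 to 1.39). The doses of the metabolites differ, so the calcifediol and calcitriol values stand side by side without a comparison.

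Fabp4 had 86 and 40 counts in the calcifediol and calcitriol libraries of C2C12 cells, against 0 in the olanzapine library and 0 in the vehicle library. Set against a floor of 3 counts in the olanzapine library, it was at least 29.4-fold higher with calcifediol and at least 13.2-fold higher with calcitriol. Its level in the co-treated libraries, 4.93 and 2.22 CPM, was far below the 5878 CPM or more of any adipocyte library. Adipoq and Plin1, abundant genes of adipocytes, had 1 and 0 counts in the C2C12 calcifediol library and 0 and 0 in the calcitriol library. At the rate of Adipoq, Fabp4 would have had 3.27 counts with calcifediol, or 18.2 at the upper bound, and at most 11 with calcitriol. Whether carry-over has a part in these counts was not tested.

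**Figure D2:**
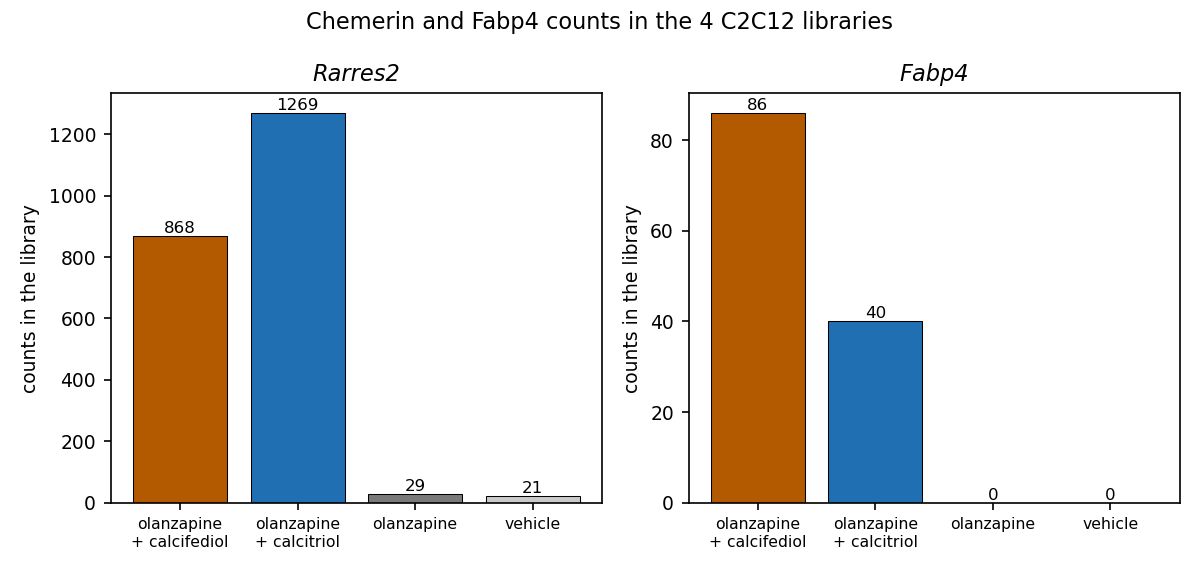
Counts of Rarres2 and Fabp4 in the 4 C2C12 libraries, 1 bar per library, not scaled to depth. Rarres2 had 868 and 1269 counts and Fabp4 86 and 40 in the co-treated libraries, against 29 and 0 with olanzapine and 21 and 0 with vehicle.

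A test over libraries was added after the data were seen, with both co-treatments of a cell type set against its olanzapine and vehicle libraries (edgeR quasi-likelihood test, 2 against 2). It treats different treatments as replicates of each other. In C2C12 cells Rarres2 was higher by 5.44 ± 0.26 on the log2 scale (adjusted p = 0.0001, higher in 2 of 2 libraries), while 3.7% of all 12314 genes were called higher. Nampt had a log2 difference of 0.29 ± 0.10 (adjusted p = 0.104, higher in 2 of 2 libraries). Fabp4 entered this test only through its co-treated libraries, so its result there is not counted. The responses of cell types were then compared in an interaction test over the 12 libraries. The Rarres2 response of C2C12 cells exceeded that of adipocytes by 5.49 ± 0.28 (adjusted p = 4.3e-08) and that of hepatocytes by 5.19 ± 0.28 (adjusted p = 8.25e-08), on the log2 scale. For Fabp4, which passed the filter of this test through adipocytes and hepatocytes, the adjusted p was 6.38e-05 and 0.000199. Between C2C12 cells and adipocytes 2.83% of genes tested were called in this direction, and between C2C12 cells and hepatocytes 2.26%. Between adipocytes and hepatocytes 0 members were called, where 0.037% of genes were, 2 members had an unadjusted p of at most 0.05 and DESeq2 also called 0.

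Nampt in C2C12 cells had 494 and 503 counts in the co-treated libraries, against 407 with olanzapine and 429 with vehicle. The log2 ratio to olanzapine was 0.31 (0.12 to 0.51) with calcifediol and 0.29 (0.10 to 0.49) with calcitriol, under the fold threshold. Apln had 4 and 3 counts in the co-treated libraries, against 15 with olanzapine and 10 with vehicle, and fell under the filter on low values. Its log2 ratio to olanzapine was -1.75 (-3.92 to -0.22) with calcifediol and -2.16 (-4.76 to -0.51) with calcitriol. Against vehicle the ratios were -1.15 (-3.37 to 0.55) and -1.55 (-4.20 to 0.25), and both intervals held 0. Adipoq, Lep and Rbp4 were at 0 to 2 counts in the 4 C2C12 libraries, so no ratio is given.

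Other genes of the same pathways were taken from lists of known members and not picked for how they moved, though they were written with earlier results known. In the same C2C12 comparisons 6.29% of genes were called lower with calcifediol and 3.93% with calcitriol. Of the called genes named below, Ppargc1a, Aplnr, Fabp4, Rbp2, Cyp26b1, Serpina12, Sfrp5 and Slc2a4 passed the filter on low values only through co-treated libraries. Their calls were fixed by it, and the list counts and medians that hold them support nothing. Of 10 adipocyte transcription factors, 8 were tested, and 3 were called higher with calcifediol and 2 with calcitriol, 0 lower in both. Cebpa, which drives adipocyte genes together with Pparg, had 579 and 432 counts in the co-treated libraries, against 185 with olanzapine and 229 with vehicle. Pparg had 279 and 189 counts, against 95 and 110, and was called only in the comparison with calcifediol (log2 ratio 1.58, 1.25 to 1.94). Cebpb, an early factor of differentiation, had 2540 and 1522 counts, against 1104 and 860, and was also called with calcifediol alone. Ppargc1a, a coactivator of Pparg, was the other factor called with calcitriol, with 45 counts, against 22 with olanzapine. The median log2 ratio of the tested factors was 0.89 with calcifediol and 0.74 with calcitriol, where that of all genes was 0.03 and 0.02. Beside them, 9 myotube markers had medians of -0.01 and 0.26 with 0 called in either direction. The 8 macrophage markers summed to 253 and 172 counts, against 163 with olanzapine and 152 with vehicle. Among them Cd68 had 124 and 69 counts, against 33 and 42. Adgre1 was at 0 and 2, Lyz2 at 0 and 0 and Ptprc at 0 in all 4 libraries. These last 3 genes were picked after their values were seen, and the rest of the list is not given. The preadipocyte and fibroblast markers summed to 10856 and 11708 CPM in the co-treated libraries, against 8675 with olanzapine and 8625 with vehicle. Of 6 tested, Pi16 was called lower with both metabolites, with 24 and 18 counts, against 211 and 215, and Cd34 with calcitriol, with 416 counts, against 944 with olanzapine. Whether a change in the cells present has a part in these values was not tested.

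The receptors and carriers of the adipokines differed between the C2C12 libraries too. Of 11 receptors and binding partners 7 were tested, and 1 was called higher and 1 lower with each metabolite, with medians of 0.19 and 0.17. Aplnr, the apelin receptor, had 11 and 38 counts, against 1 in each of the other libraries. Its log2 ratio to olanzapine was 2.97 (0.71 to 8.92) with calcifediol and 4.67 (2.67 to 10.58) with calcitriol. Stra6, the receptor that takes up retinol from Rbp4, had 13 and 43 counts, against 109 and 109, and was called lower with both. The chemerin receptor Cmklr1 had 725 and 805 counts, against 1359 and 1465, and was not called. Of 6 genes of adiponectin folding and secretion 4 were tested and 0 called, with medians of 0.19 and -0.15. The adiponectin receptors Adipor1 (4059 and 3493 counts, against 3633 and 3531) and Adipor2 (1584 and 1425, against 1258 and 1361) and the adiponectin binding protein Cdh13 (10069 and 9862, against 8451 and 9069) were not called.

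Of 14 genes of retinol carriage and metabolism, 8 were tested, and 4 were called higher with each metabolite, 1 lower with calcifediol and 2 lower with calcitriol, with medians of 1.02 and 1.23. Cyp26b1, which degrades retinoic acid, had 430 and 408 counts, against 20 with olanzapine and 25 with vehicle. Rbp2, a carrier of retinol inside cells, had 16 and 27 counts, against 0 with olanzapine and 0 with vehicle, and was called higher with both metabolites. Of 7 fatty acid binding proteins 3 were tested, and 1 was called with calcifediol and 2 with calcitriol, all higher, with medians of 0.94 and 1.41. Fabp4 was the one called with calcifediol and was among those called with calcitriol. It entered the test only through co-treated libraries, so these counts and medians support nothing. Fabp5 had 833 and 1388 counts, against 517 and 498, and was called with calcitriol, while Fabp3, the muscle form, had 980 and 895, against 522 and 468, and was not called.

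Among 20 other proteins that adipocytes secrete, 13 were tested, with 2 called higher and 1 lower with calcifediol and 3 higher and 3 lower with calcitriol, with medians of -0.29 and -0.01. Serpina12 (vaspin) had 62 and 72 counts, against 0 with olanzapine and 2 with vehicle, and the growth factor Vegfa had 7675 and 8266, against 2654 and 2527, and both genes were called higher with both metabolites. Sfrp5 had 31 counts in the calcitriol library alone and 0 in the other 3. Of 9 C1q/TNF related proteins, relatives of adiponectin, 5 were tested, with medians of -0.45 and 0.13, and 1 was called higher and 1 lower with each metabolite. C1qtnf1 was the one higher, with 1519 and 1530 counts, against 398 and 479. The insulin-regulated glucose transporter Slc2a4, of the intracellular adipocyte list, had 46 and 48 counts, against 10 and 9. It was called higher with both, a call fixed by the filter as given above. No other gene of that list was called with calcifediol, and only Fabp5 beside it with calcitriol. The 11 genes of the list with a row in C2C12 cells summed to 242 and 244 CPM, against 159 with olanzapine and 155 with vehicle. Of 13 genes of NAD synthesis and use 11 were tested, with medians of 0.31 and 0.23, and Nmrk2, a muscle enzyme that makes NAD from a precursor other than that of Nampt, was the one called, with 330 and 520 counts, against 140 with olanzapine.

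In adipocytes 0 of 9 members were called in any of the 3 comparisons, where 1.22% of genes tested were called with olanzapine against vehicle, 1.52% with calcifediol and 0.974% with calcitriol against olanzapine. A fold change of 1.5 in place of 2 also gave 0. For each member the highest of the 4 adipocyte libraries was 1.17 to 1.31 times the lowest. The members with the fewest counts, Apln and Lep, had 952 to 1417 in each adipocyte library.

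The members furthest from 0 in adipocytes with olanzapine against vehicle were Adipoq, with 1886 against 2478 CPM (log2 ratio -0.39, -0.42 to -0.37), and Rarres2, with 147 against 184 CPM (-0.32, -0.40 to -0.24). Apln was the one member above 0, with 72.9 against 60.9 CPM (0.26, 0.14 to 0.38). The median of the 9 was -0.11, where that of all genes was -0.03. The direction depended on the scaling, since 8 of 9 members were below 0 with total counts and 8 of 9 above 0 when scaled to Rplp0, which moved the median of all genes to 0.35.

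With calcifediol against olanzapine the adipocyte members lay between -0.31 and 0.15 on the log2 scale. Lep was lowest, with 67.6 against 83.7 CPM (-0.31, -0.42 to -0.19), and Rarres2 highest, with 163 against 147 CPM (0.15, 0.07 to 0.22). With calcitriol against olanzapine they lay between -0.18 for Fabp4 (5878 against 6676 CPM) and 0.16 for Cfd (980 against 876 CPM) and Retn (1860 against 1663 CPM). Scaling to Rplp0 put all 9 below 0 in both comparisons and moved the median of all genes to -0.38 and -0.22. In the 2 against 2 test 0 of 9 adipocyte members were called, at the 0.14% of genes called in either direction, and 0 had an unadjusted p of at most 0.05, while DESeq2 gave 0 as well.

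**Figure D3:**
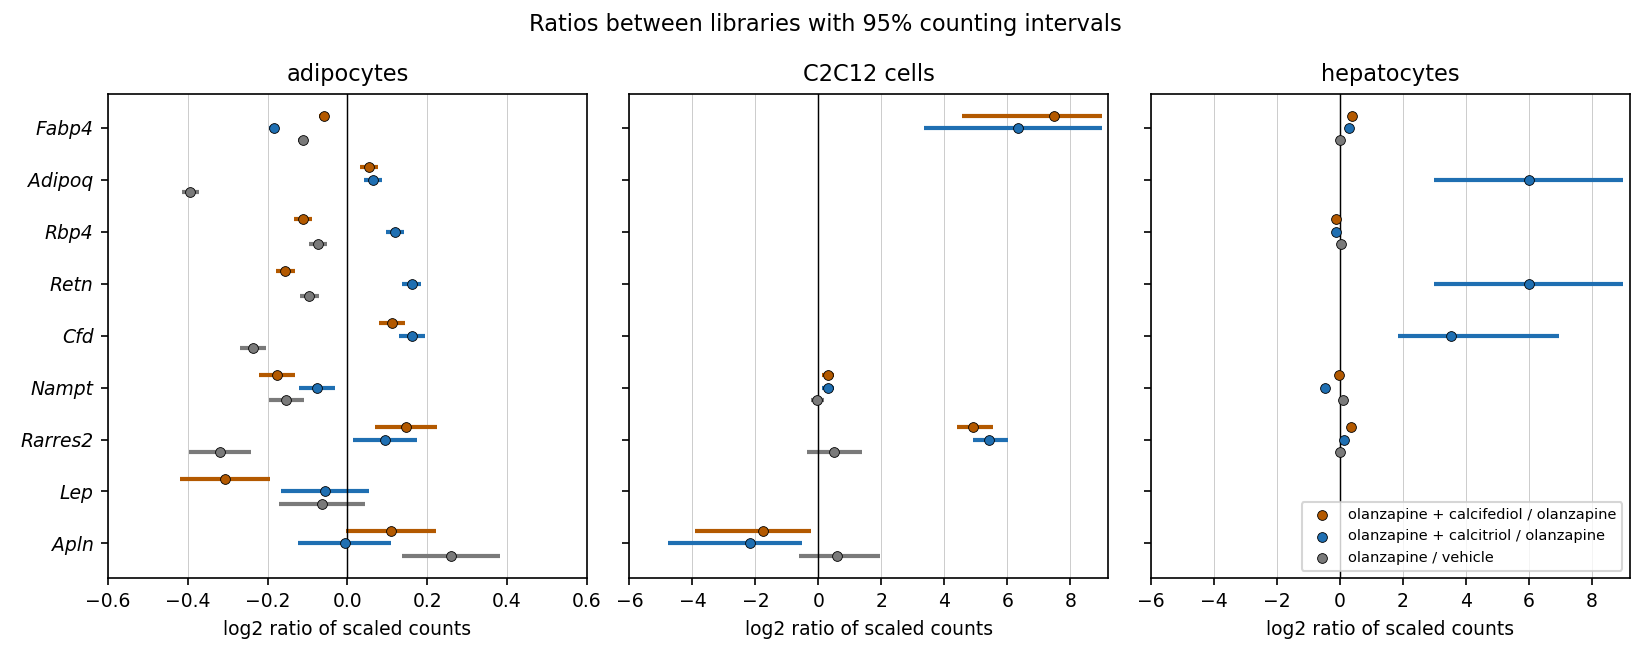
Log2 ratio of scaled counts for each member (rows) in 3 comparisons of 2 libraries (colours), with 95% counting intervals, 1 panel per cell type and its own horizontal scale in adipocytes. Pairs with fewer than 15 counts in all are left out and intervals without an upper bound end at 9. Adipocyte ratios stay between -0.4 and 0.3. In C2C12 cells the co-treatment ratios of Rarres2 and Fabp4 lie above 4, while Rarres2 with olanzapine against vehicle lies at 0.50.

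Little else of the adipocyte lists was called. Crabp2, a carrier of retinoic acid, had 64 and 66 counts with calcifediol and calcitriol, against 8 with olanzapine and 4 with vehicle, and was called higher with both metabolites. The transcription factor Cebpd had 375 counts with calcifediol, against 171 with olanzapine. Of the markers, Pi16 had 36 counts with calcifediol, against 108, and Alb 4, against 21, both called lower. Of the other lists of receptors, adiponectin folding, C1q/TNF related proteins, other secreted proteins, fatty acid binding and NAD, 0 genes were called in adipocytes in these comparisons.

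In hepatocytes 0 of the members were called with olanzapine against vehicle (background 0.356%) or with calcifediol against olanzapine (0.566%). With calcitriol against olanzapine 3 were called higher, against 0.255% of genes: Adipoq, with 33 against 0 counts, Retn, with 33 against 0, and Cfd, with 30 against 2. Against the floor of 3 counts Adipoq and Retn were each at least 10.4-fold higher, and Cfd had a log2 ratio of 3.53 (1.85 to 6.94). These 3 genes passed the filter on low values only through this library, so their calls were fixed by it and are a description.

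The same library held other genes of fat and connective tissue cells at low counts. Col1a1 had 191 counts, against 17 with calcifediol, 6 with olanzapine and 2 with vehicle. Col3a1 had 253, against 5, 10 and 6, and Plin1, a lipid droplet protein of adipocytes, had 39, against 2, 1 and 1. Per 1000 counts in the adipocyte calcitriol library, scaled to totals, the hepatocyte calcitriol library had 0.866 (95% counting interval 0.596 to 1.22) of Adipoq, 0.917 (0.631 to 1.29) of Retn, 1.58 (1.07 to 2.26) of Cfd, 1.27 (0.902 to 1.73) of Plin1, 1.18 (0.658 to 1.94) of Dlk1, 1.03 (0.887 to 1.18) of Col1a1 and 1.36 (1.2 to 1.54) of Col3a1. These 7 genes were chosen after their values were seen, and other genes of the same lists lay higher. Dcn had 2.12 (1.42 to 3.05), Slc2a4 2.77 (1.71 to 4.23) and Pdgfra 3.3 (1.51 to 6.27). Over all 12 intracellular adipocyte markers the values were 1.27 to 126, the highest being Dgat2. In the olanzapine library the values were 2.04 for Dcn, 0 for Slc2a4, 1.36 for Pdgfra and 131 for Dgat2. Such values hold counts read without calcitriol as well, so whether a carry-over rate was the same for all genes was not tested. In the calcifediol library the values were 0.133 (0.0432 to 0.311) for Adipoq and 0.105 (0.0216 to 0.306) for Retn. The 3 calls are therefore given as possible carry-over, whose part in them was not tested.

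**Figure D4:**
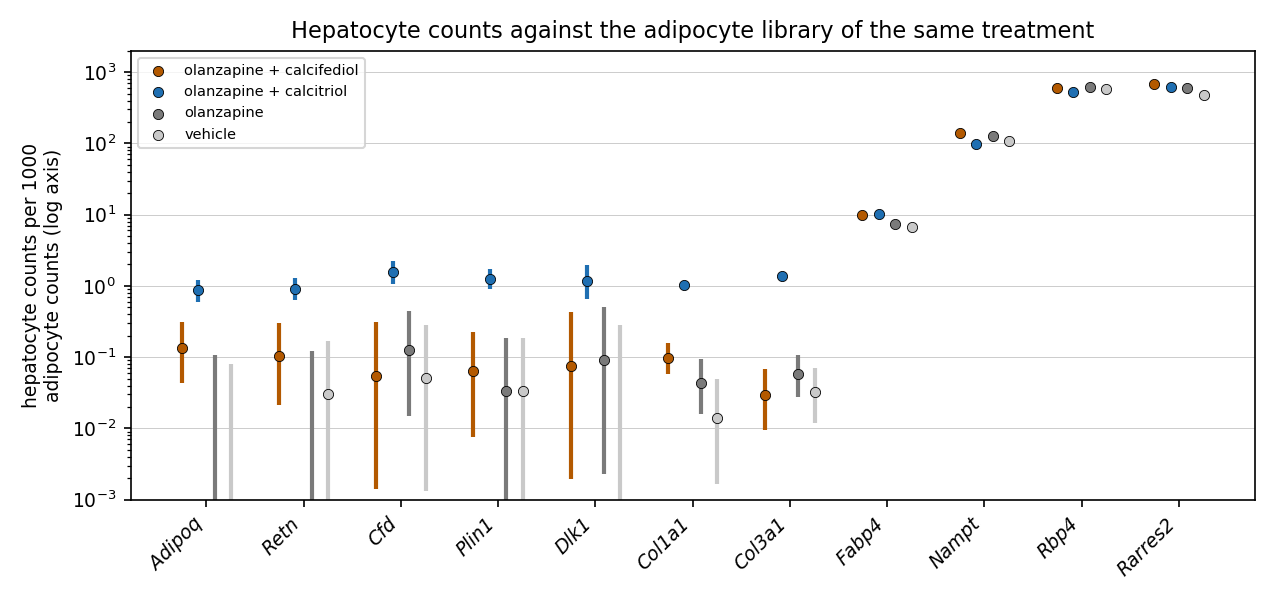
Counts in each hepatocyte library per 1000 counts of the same gene in the adipocyte library of the same treatment, scaled to totals, on a log axis, with 95% counting intervals and no point where the count was 0. Adipoq, Retn, Cfd, Plin1, Dlk1, Col1a1 and Col3a1 lie near 1 in the calcitriol library, while Fabp4, Nampt, Rbp4 and Rarres2 lie above those 7 genes in all 4.

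The members read at 40 CPM or more in every hepatocyte library were not called. Fabp4 had 1228 and 1162 counts with calcifediol and calcitriol, against 904 with olanzapine and 925 with vehicle, and both co-treated libraries lay above both others. Its log2 ratio to olanzapine was 0.38 (0.25 to 0.50) with calcifediol and 0.28 (0.16 to 0.41) with calcitriol. At the rate of Adipoq, 98.5 of the 1162 counts in the calcitriol library could be carried over, and the log2 ratio without them was 0.16. At the upper bound of that rate the values were 138 counts and 0.10. Other genes had higher rates, such as Cfd with 1.58 per 1000, against 0.866 for Adipoq. Rarres2 had 2144 and 1871 counts, against 1606 and 1640, with a log2 ratio of 0.35 (0.26 to 0.45) with calcifediol and 0.14 (0.05 to 0.24) with calcitriol. In the 2 against 2 test the adjusted p was 0.231 for Fabp4 and 0.628 for Rarres2, both higher in 2 of 2 libraries.

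Nampt in hepatocytes had 1175 and 865 counts with calcifediol and calcitriol, against 1138 with olanzapine and 1089 with vehicle. The calcitriol library was the low one, with a log2 ratio to olanzapine of -0.47 (-0.60 to -0.35), under the fold threshold. Rbp4 was within 0.14 of 0 on the log2 scale in all 3 hepatocyte comparisons. Apln had 0 and 2 counts in the co-treated libraries, against 4 and 10, and fell under the filter on low values. In the 2 against 2 test the 1 hepatocyte member past the thresholds was Adipoq, where 0.053% of genes were called higher. It entered that test only through the calcitriol library, so the call is not counted. The test called 0 members without the calcitriol, the olanzapine or the vehicle library, 3 without the calcifediol library, and DESeq2 called 0.

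The same model was used to ask for a change common to the 3 cell types. It covered the 3 members that passed its filter in each cell type: Nampt, Rarres2 and Fabp4, which in C2C12 cells passed only through co-treated libraries. None was called with olanzapine against vehicle, calcifediol against olanzapine or calcitriol against olanzapine (edgeR quasi-likelihood test, adjusted over 9991 genes), where 0% of genes were called. At an unadjusted p of at most 0.05 there were 70, 1164 and 303 of all genes and 0 of the members, and DESeq2 called 0, 11 and 0 genes and 0 members. The log2 difference for Rarres2 was 1.15 ± 0.93 (SE) with calcifediol and 1.38 ± 0.95 with calcitriol, and it was 0.25 and 0.12 when the C2C12 libraries were left out.

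The genes most like each member were taken by Pearson's r of log2(CPM + 1) over the 12 libraries, among 10771 other genes, as a description. These values follow the differences between cell types, since the 4 libraries of a cell type share their cells. Adipoq was nearest to Plin1 (0.9997), Arxes1 (0.9995) and Slc36a2 (0.999), and Lep to Slit3 (0.9999), Agtr2 (0.9997) and Gucy1a1 (0.9997). Rbp4 was nearest to Smoc1 (0.999), Aldh1a7 (0.9988) and Zfp263 (0.9985). Nampt was nearest to Decr1 (0.9973), Acss2 (0.9969) and Cd36 (0.9968), Apln to Aatk (0.9982), Fasn (0.998) and Tgfbi (0.9979), and Fabp4 to Cebpa (0.9986), Hacl1 (0.9983) and Pgm2 (0.998). For Rarres2 the values were lower, at 0.9843 for Cdc42ep4, 0.9710 for Shpk and 0.9681 for Aldh2. Retn and Cfd were left out of this measure, since they had no row in the C2C12 table.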

How the data were processed

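Reads of 12 poly(A) libraries were filtered, mapped to GRCm38.p6 with HISAT and Bowtie2 and quantified with RSEM, per the submitters' processing notes and the study's methods. The authors deposited expected counts per gene, unscaled between libraries, and FPKM, which the authors scaled to gene length and mapped reads. The 12 TPM columns were not used. Expected counts were rounded to whole numbers. Ratios used total counts and a pseudocount of 0.5, with Clopper-Pearson 95% intervals. Calls in pairs used the Audic-Claverie comparison, adjusted over the genes that reached a TPM of 1 in any library of that cell type. TPM was recomputed from FPKM. Models used edgeR 4.0.16 with Benjamini-Hochberg adjustment and a CPM of at least 1 in a library (in each cell type for the common change). DESeq2 1.42.0, R 4.3.3 and Python 3.11.15 were used for alternatives, scripts and plots. The tests were checked on simulated counts.

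Symbols stored as dates (23 or 24 per table) were restored by gene number. Nothing in the labels ties a library to a repeat culture, so p-values over libraries measure their spread only. The members and lists were chosen with earlier results of these data known. Beside the 9 members, genes were named by a rule: up to 4 called genes of a list with the largest ratio, and the 3 genes nearest to a member. Cmklr1, Adipor1, Adipor2, Cdh13, Ttr, Fabp3, Dlk1, Dcn, Pdgfra, Adgre1, Lyz2 and Ptprc fall outside it and were chosen after their values were seen.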

Additional observations from a re-analysis of the deposited data

Results flagged for a closer look

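The response to the vitamin D co-treatments differed between cell types for 2 members, by a test of the difference itself (edgeR quasi-likelihood interaction test over 12 libraries, 2 libraries with and 2 without a metabolite in each cell type). For Rarres2 the adjusted p was 4.3e-08 for C2C12 cells against adipocytes and 8.25e-08 for C2C12 cells against hepatocytes, with the C2C12 response higher in both. For Fabp4 it was 6.38e-05 and 0.000199, in the same direction. Fabp4 passed the filter of this test through adipocytes and hepatocytes. Its fitted size depends on the prior count, because the C2C12 olanzapine and vehicle libraries held 0 counts.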

How the results depend on the processing

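The number of members past the thresholds in each comparison of 2 libraries was within 1.5 times of the reported one with scaling by TMM, by DESeq2 size factors, by Rplp0 or from FPKM, and with a pseudocount of 5, a fold change of 1.5, no filter or vehicle as reference of the co-treatments. No filter gave 3 in place of 2 in C2C12 cells with each metabolite. The counts in the additive models stayed within 1.5 times under TMM factors, DESeq2, other filters, leaving out a cell type and leaving out the hepatocyte calcitriol library. The 2 against 2 test in hepatocytes called 1 member, 0 with DESeq2 and 0 to 3 when a library was left out, while in C2C12 cells it called Rarres2 under all 6 alternatives. The interaction test of C2C12 cells against adipocytes called 3 members in place of 2 with DESeq2 and without the hepatocyte calcitriol library, the added one being Apln (adjusted p = 0.0561 in the reported fit, 0.0228 to 0.0522 over 3 alternatives). These 2 against 2 and interaction tests and the fit over 8 libraries were chosen after seeing the data. No paired analysis was possible because the labels give no replicate numbers and each condition has 1 library. Leaving out a replicate within a condition cannot be done for the same reason. In adipocytes, scaling to Rplp0 raised the share of higher calls among all called genes to 78.3% with olanzapine (30.6% with total counts) and lowered it to 10.4% with calcifediol (49.2%) and 27.8% with calcitriol (53%); in C2C12 cells it was 68.8% with calcitriol (53%) and in hepatocytes 23.1% with calcifediol (33.9%). The cause was not tested. Depth limits Apln, Lep, Adipoq and Rbp4 in C2C12 cells and Apln in hepatocytes, where counts of 0 to 15 were read.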
